A study of Homo sapiens with 11 samples.

Results

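Cells arrested by tozasertib were compared with cells arrested by etoposide, without untreated cells in the contrast. The members are the samples whose labels name tozasertib (n = 3) or etoposide (n = 4), which are 7 of the 11 samples of the series, and the other 4 were given the solvent DMSO. All samples were of SK-MEL103, an established human melanoma line and so a single genetic background. Etoposide was given at 0.25 µM and tozasertib at 0.5 µM for 6 days, and medium and drug were renewed on day 3, so doses were not matched between the agents and only 1 time point exists. The labels call the drug-treated cells senescent, and the study used them as models of therapy-induced senescence. No tozasertib replicate 3 is among the 11 samples, and no source gives the replicates as independent cultures. The p-values therefore cover the scatter among these libraries only, part or all of which could be technical. In bulk RNA a change in the share of cells of a state and a change in the RNA of each cell cannot be told apart.

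Both agents stop proliferation, by different routes. Aurora A builds the spindle poles and Aurora B corrects the attachment of chromosomes to the spindle and drives the last cut between daughter cells, and when both are inhibited cells leave mitosis without dividing and can become polyploid. Topoisomerase II lets DNA strands pass through each other, and etoposide traps it on DNA, which leaves double-strand breaks that activate ATM, p53 and the CDK inhibitor p21. Senescent cells of either kind enlarge, lose lamin B1 and secrete proteins known as the senescence-associated secretory phenotype (SASP).

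Transcript abundance was measured by strand-specific poly(A) RNA sequencing, and the deposited estimated counts were summed to genes. Totals ran from 27882689 to 56534763 reads per sample. Levels are CPM (reads scaled to a common library size) scaled by TMM, given as mean ± SD, and differences are log2 values fitted by edgeR, tozasertib minus etoposide, ± SE. Of 13 pigment genes of melanocytes 5 were tested. Their summed level was 74.5 ± 3.03 CPM under tozasertib, 71.9 ± 3.25 CPM under etoposide and 104 ± 3.51 CPM with DMSO. The pigment gene MLANA had no read in any sample and TYR had none with either drug. SOX10, a factor of the melanocyte and neural crest lineage, stood at 379 ± 3.302 CPM under tozasertib and 323 ± 8.899 CPM under etoposide. Among markers of fibroblasts, keratinocytes, immune and endothelial cells, 13 of 22 were tested and 1 was called, and the summed level was 224 to 241 CPM under tozasertib and 247 to 265 CPM under etoposide. The first principal component of the 7 samples held 42.4% of the variance and separated the drugs, with etoposide replicate 1 nearest to tozasertib. The second held 16.5% and set replicates 1 and 2 apart from replicates 3 and 4. All 966 genes called higher and all 929 called lower had the same direction within replicates 1 and 2 and within replicates 3 and 4. The calls rest on these same samples, so this agreement is nearly fixed by the selection and is no independent support. In replicates 3 and 4 tozasertib was represented by replicate 4 alone.

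The threshold for a call was an adjusted p under 0.05 (edgeR's quasi-likelihood test, Benjamini-Hochberg over 17039 genes). Tozasertib and etoposide differed in 1895 genes (11.1% of those tested), with 966 higher under tozasertib (5.67%) and 929 lower (5.45%). The sizes were not symmetric, since 358 genes were at least 2-fold higher and 60 at least 2-fold lower, and 151 were at least 4-fold higher against 4 lower. The median over all genes tested was 0.01. Genes of the interferon response made up 36 of the 151, and 133 of the 170 tested members of that list were higher and 2 lower. IFIT1, an interferon-induced protein that binds foreign RNA, stood at 379, 353 and 367 CPM under tozasertib and at 55.01, 44.6, 21.99 and 32.5 CPM under etoposide. IFIT2, IFIT3, IFIT5 and the nuclear body protein SP110 were higher by 2.29, 2.65, 1.596 and 1.49 on the log2 scale. With the interferon list set aside, 833 genes were higher and 927 lower of 16869, and these are the subject of what follows. The share of calls that were higher moved with the scaling, from 51.0% to 43.0% with RLE size factors and 58.5% with library size alone, and was 40.6% with DESeq2, which also changes the test.

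**Figure D1:**
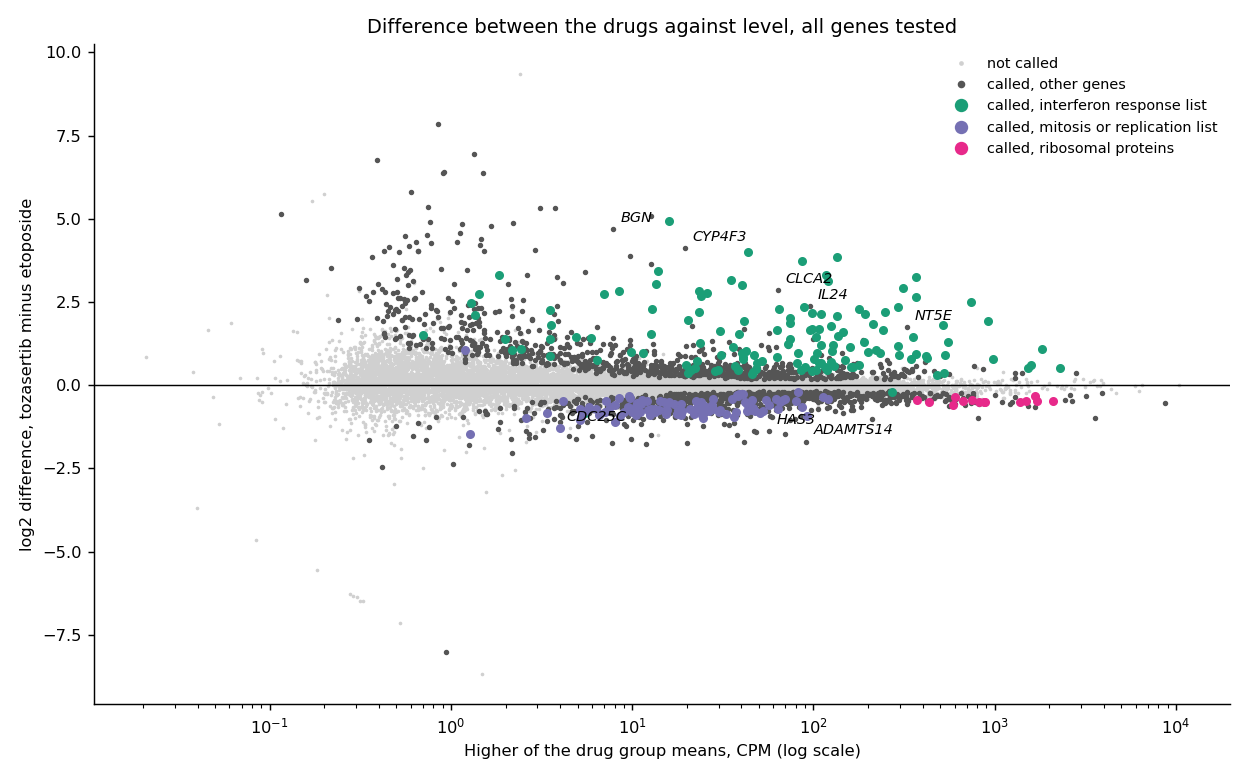
The log2 difference between tozasertib and etoposide (vertical) is plotted for each gene tested against the higher of the drug group means in CPM (horizontal, log scale), with called genes coloured by list. Large positive differences gather at low levels and in the interferon list, while mitosis and replication genes and ribosomal proteins sit below 0.

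The gene lists described here were chosen with earlier results of these data known, so their counts are descriptions to be read against the share of all genes. Shares above that background in the direction of tozasertib were found, among others, for NRF2 target genes, NF-kB, ERK output, ferroptosis defence and iron, the secreted factors, p53 targets, the integrated stress response and the melanocyte lineage. In the direction of etoposide they were found, among others, for mitosis, DNA replication, double-strand break repair, ribosomal proteins, actin, myosin and tubulin, and TGF-beta and BMP, and for extracellular matrix in both directions. The shares of the BCL2 family, cholesterol synthesis and the Hippo pathway were near it, and that of the unfolded protein response was below it.

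**Figure D2:**
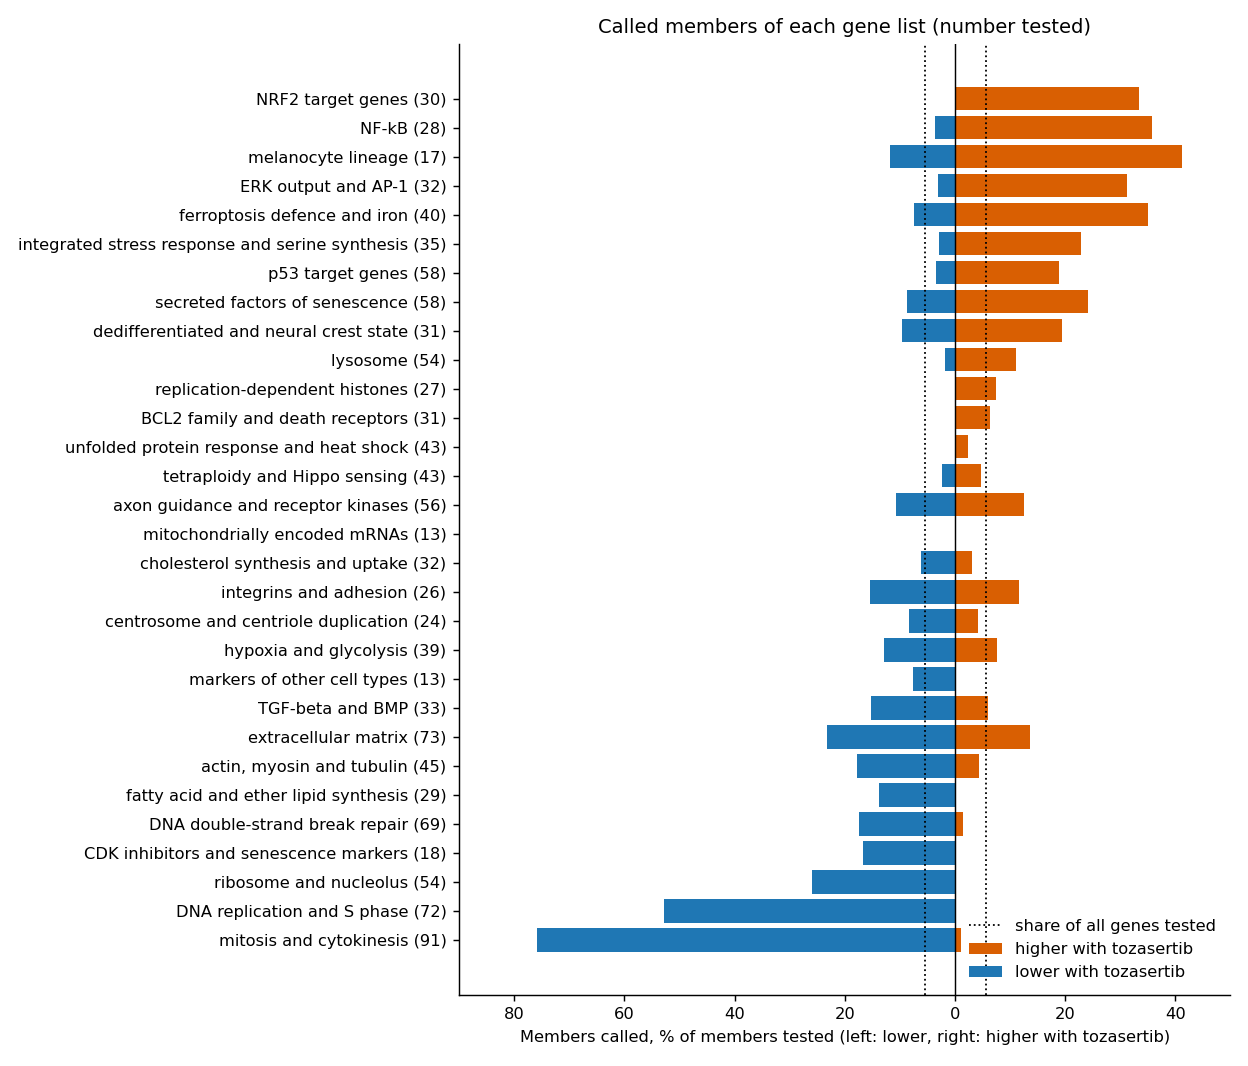
For each of 30 gene lists, the bar to the right is the percentage of tested members called higher under tozasertib and the bar to the left the percentage called lower, with the number tested in brackets and dotted lines at the shares of all genes (5.67% and 5.45%). Mitosis and DNA replication reach furthest to the left, and the melanocyte lineage and NF-kB furthest to the right.

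Mitotic genes were lower under tozasertib than under etoposide. Of 91 genes of mitosis and cytokinesis, 69 were lower and 1 higher (median -0.69), and in 75 the tozasertib samples all lay below the etoposide samples. Over all genes tested the drug groups did not overlap in 31.0%, in either direction. Their summed level was 2041 ± 187 CPM under tozasertib and 2831 ± 269.6 CPM under etoposide, both far below the 9000.4 ± 264 CPM of DMSO. The etoposide samples thus held more of these transcripts than the tozasertib samples, and less than the DMSO samples.

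Aurora kinases and their partners, the targets of tozasertib and the proteins that activate them, were lower in 7 of 9 members. AURKA, the kinase of the spindle poles, was measured at 16.8, 16.4 and 13.3 CPM under tozasertib and at 25.99, 27.2, 22.7 and 19.5 CPM under etoposide, without overlap (difference -0.62 ± 0.12 (SE), adjusted p = 0.00391). AURKB, the kinase of the chromosomal passenger complex, was measured at 6.88, 7.48 and 4.34 CPM and at 12.03, 12.3, 10.3 and 7.18 CPM. Its difference was -0.76 ± 0.21 (SE) with an adjusted p of 0.0368, the groups overlapped, and the call was lost when any of 6 single samples was left out (adjusted p up to 0.139). The lowest sample of each drug was replicate 4. AURKC, the Aurora kinase of germ cells, was the single member that was higher, from 0.567 ± 0.14 CPM to 1.19 ± 0.072 CPM, and this call too was lost without 6 of the 7 samples, 1 at a time (adjusted p up to 0.117).

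Other roles moved in the same direction. Among kinases and phosphatases of mitotic entry 11 of 14 were lower, and CDC25C, the phosphatase that activates CDK1 at the entry into mitosis, differed most, at 1.69, 1.398 and 1.76 CPM against 4.27, 4.85, 3.51 and 3.28 CPM (difference -1.29 ± 0.16 (SE), adjusted p = 0.000185). Of kinetochore and spindle checkpoint genes 22 of 25 were lower, and their summed level was 363 ± 29.4 CPM under tozasertib, 493 ± 43.02 CPM under etoposide and 1398 ± 39.5 CPM with DMSO. BUB1B, the checkpoint protein BubR1, was 1.84-fold higher under etoposide, CENPI of the inner kinetochore 1.94-fold and SGO2, a protector of cohesion at centromeres, 1.48-fold. Motors and microtubule regulators were lower in 17 of 21, midzone and cytokinesis genes in 4 of 6, and genes of mitotic exit and separation in 3 of 7. Among genes of chromosome structure 5 of 9 were lower. MKI67, the proliferation marker Ki-67 that coats mitotic chromosomes, was measured at 34.5, 31.1 and 20.03 CPM against 56.9, 47.1, 45.05 and 35.4 CPM (difference -0.69 ± 0.19 (SE), adjusted p = 0.0301), the groups did not overlap, and its call was lost without any of 5 single samples (adjusted p up to 0.101). TOP2A, the topoisomerase that etoposide traps in dividing cells, was measured at 56.02, 53.6 and 38.1 CPM against 103, 104, 89.4 and 74.2 CPM, with 311 ± 43.95 CPM in DMSO samples (difference -0.91 ± 0.16 (SE), adjusted p = 0.00196). TOP2B, the isoform of resting cells, went the other way, at 150.2 ± 3.78 CPM against 126 ± 3.99 CPM, a call that was lost when any 1 of the 7 samples was left out (adjusted p up to 0.146).

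**Figure D3:**
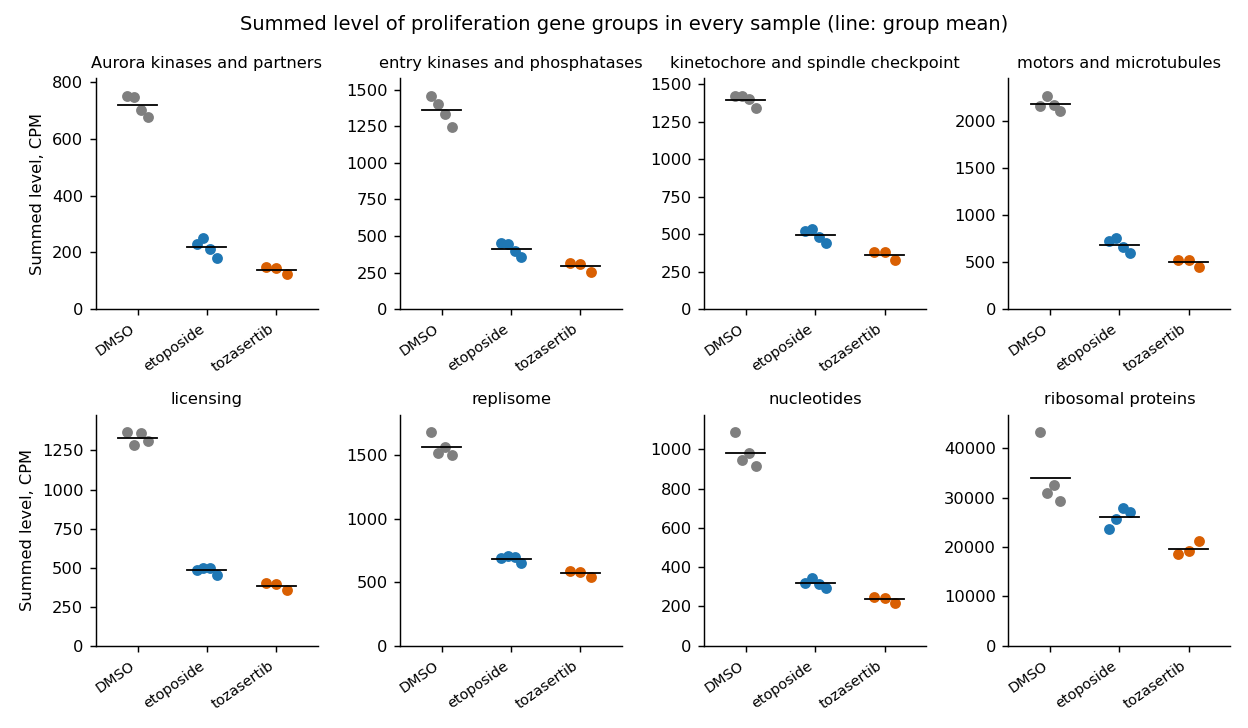
Each panel gives the summed level in CPM (vertical, from 0) of 1 group of genes in every DMSO, etoposide and tozasertib sample, with a line at the group mean. In all 8 panels each tozasertib sample lies below each etoposide sample, and for the 7 groups of mitosis and replication both drugs lie far below DMSO.

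Mitotic genes share short promoter words that are read by the DREAM complex, a repressor that shuts them in resting cells, and by its activating counterpart with MYB and FOXM1. The CHR word (TTTGAA, on either strand) was found in 36 of the 59 promoters (61.0%) of mitosis genes that were lower under tozasertib and have a RefSeq promoter, against 10.1% of the 11780 tested genes with one and 15.4% of all 27305 promoters of the same length. The word lay within 50 bases of the start in 30 of the 36. It was found in 14 of 20 promoters of mitosis genes that were tested and not called lower, and in 9.38% of the 32 promoters of lower replication genes. CCAAT was found in 67.8% of the 59 promoters against 36.99% of tested genes, and neither word contains the other. The windows run from 250 bases before to 50 after the start, and both strands were searched. BUB1B and MKI67 were taken by the naming rule, and PLK1, CCNB2 and KIF4A were added for where the word lies, after their values were seen. The 120 bases before the start of each are shown 5′ to 3′ (RefSeq, GRCh38.p14) with the CHR word in capitals, since the mitosis genes were lower together. Their positions are chr15:40160949-40161068 (plus strand) for BUB1B, chr10:128126424-128126543 (minus strand) for MKI67, chr16:23678769-23678888 (plus strand) for PLK1, chr15:59105026-59105145 (plus strand) for CCNB2 and chrX:70289984-70290103 (plus strand) for KIF4A.
BUB1B: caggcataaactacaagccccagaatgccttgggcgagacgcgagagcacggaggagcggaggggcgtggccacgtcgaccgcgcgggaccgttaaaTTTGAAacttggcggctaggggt
MKI67: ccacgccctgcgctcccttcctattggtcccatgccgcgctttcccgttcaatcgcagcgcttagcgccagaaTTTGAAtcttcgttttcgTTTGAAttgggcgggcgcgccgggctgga
PLK1: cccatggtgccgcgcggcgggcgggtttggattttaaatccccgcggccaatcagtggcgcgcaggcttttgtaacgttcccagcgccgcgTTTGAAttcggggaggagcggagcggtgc
CCNB2: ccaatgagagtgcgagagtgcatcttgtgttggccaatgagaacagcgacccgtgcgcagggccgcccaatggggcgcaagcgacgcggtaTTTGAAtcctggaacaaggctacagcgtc
KIF4A: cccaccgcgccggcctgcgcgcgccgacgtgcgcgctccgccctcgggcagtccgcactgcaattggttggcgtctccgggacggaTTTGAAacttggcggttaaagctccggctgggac
The word begins 23 to 34 bases before the start in the 5 promoters, and MKI67 holds another copy further upstream. PLK1, the Polo kinase of mitotic entry, differed by -0.88, the cyclin gene CCNB2 by -0.74 and the chromokinesin gene KIF4A by -0.86 on the log2 scale, close to the -0.88 of BUB1B and the -0.69 of MKI67.

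Genes of DNA replication and S phase were also lower, by less. Of 72 members 38 were lower and none was higher (median -0.38), and 67 of the 72 had a fitted difference below 0. Licensing factors, which load the replicative helicase in G1, were lower in 12 of 15. CDC6, a loader of that helicase, was measured at 10.2, 10.4 and 9.38 CPM under tozasertib and at 18.7, 19.5, 19.4 and 16.9 CPM under etoposide, with 56.01 ± 2.32 CPM in DMSO samples (difference -0.90 ± 0.07 (SE), adjusted p = 4.04e-06). CDT1, its partner, was 1.86-fold higher under etoposide, and MCM4, a helicase subunit, differed by -0.59 ± 0.06 (SE) on the log2 scale. The chromatin factor UHRF1, which follows the fork, was 1.38-fold higher under etoposide. Replisome genes were lower in 12 of 28.

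CCNE1, the cyclin that drives CDK2 into S phase, was measured at 10.2, 10.1 and 11.7 CPM under tozasertib, at 17.2, 16.1, 20.4 and 19.8 CPM under etoposide and at 7.899 ± 1.23 CPM with DMSO (difference -0.78 ± 0.13 (SE), adjusted p = 0.00141). The etoposide samples were the high group for this gene, and the groups did not overlap. CCND1, the D-type cyclin, was at 1988 ± 34.7 CPM and 1917 ± 59.04 CPM with 1041 ± 51.05 CPM in DMSO samples, a difference of 0.05 ± 0.06 (SE) with an adjusted p of 0.618.

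The CDK inhibitors showed no called difference among 6 tested members. CDKN1A, which encodes p21, was measured at 1483, 1499 and 1512 CPM under tozasertib and at 1428, 1439, 1385 and 1371 CPM under etoposide, with 458 ± 34.2 CPM in DMSO samples (difference 0.09 ± 0.06 (SE), adjusted p = 0.395). The tozasertib samples all lay above the etoposide samples by a small margin, and both drugs lay far above DMSO. CDKN2A, the locus of p16 and ARF, differed by -0.10 ± 0.12 (SE) and CDKN1B, which encodes p27, by 0.00 ± 0.10 (SE), with adjusted p-values of 0.669 and 0.996. In the nuclear lamina and chromatin group 3 of 12 members were lower under tozasertib. LMNB1, the lamin B1 gene whose loss marks senescence, was measured at 33.03, 31.5 and 24.7 CPM against 50.7, 54.4, 47.6 and 43.3 CPM, with 222 ± 6.84 CPM in DMSO samples (difference -0.72 ± 0.10 (SE), adjusted p = 0.000397). Its groups did not overlap and its call was kept under every alternative. The other 2 were HMGB2, a chromatin protein lost in senescence (-0.62), and LMNB2 (-0.27), and both calls were lost without single samples (adjusted p up to 0.133 and 0.0842).

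Most genes of double-strand break repair did not differ by the test. Of 69 genes 12 were lower under tozasertib and 1, TOP2B, was higher (median -0.07), and none of the 13 genes of end joining was called. The lower members came from homologous recombination (6 of 26), the Fanconi anaemia pathway (4 of 13) and damage signalling (2 of 11). RAD54L, a motor protein of homologous recombination, was 3.46 ± 0.229 CPM against 5.72 ± 0.946 CPM (difference -0.72 ± 0.13 (SE), adjusted p = 0.00254), and DMSO samples held 20.6 ± 1.12 CPM. H2AX, the histone variant phosphorylated at breaks, was 32.5 ± 1.75 CPM against 51.02 ± 3.03 CPM (difference -0.65 ± 0.11 (SE), adjusted p = 0.00154), with 183 ± 28.96 CPM in DMSO samples. For both genes the drug groups did not overlap, and either drug lay below DMSO. The number of lower members was 6 with length-scaled counts and 19 with DESeq2. Centrosomes over-accumulate in cells that fail to divide. Among genes of the centrosome and centriole duplication, 2 of 24 were lower (CETN2 and STIL) and 1 higher (CEP120). All 3 calls were lost without single samples.

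Targets of p53 were higher under tozasertib more often than lower, by small amounts. Of 58 tested, 11 were higher and 2 lower (median 0.17), and 51 had a fitted difference above 0. MDM2, the ligase that degrades p53 and is itself its target, was measured at 463, 456 and 459 CPM under tozasertib, at 359, 339, 334 and 326 CPM under etoposide and at 130.4 ± 6.19 CPM with DMSO (difference 0.44 ± 0.06 (SE), adjusted p = 0.000198). GADD45A, which slows the cycle after damage, was measured at 315 ± 15.8 CPM against 227 ± 12.6 CPM (difference 0.47 ± 0.09 (SE)). GDF15, a secreted stress factor, was 3.14-fold higher at low level, 1.53 ± 0.313 CPM against 0.478 ± 0.177 CPM. The 2 lower members were STEAP3, a ferrireductase (-0.57), and PLK2, a kinase of centriole duplication (-0.32), whose call was lost without any of 6 single samples (adjusted p up to 0.135). The count of higher members was 3 with length-scaled counts, where MDM2 had an adjusted p of 0.119, and 4 to 6 when a tozasertib replicate or etoposide replicate 2, 3 or 4 was left out.

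Of 43 genes of tetraploidy and Hippo sensing 6.98% were called, against 11.1% of all genes tested. Extra centrosomes activate the PIDDosome and the Hippo kinase LATS2. None of 4 PIDDosome genes and none of 13 genes of the Hippo kinase group was called. Groups this small would hold few calls at the share of all genes, so these counts do not set them apart. Of 18 target genes 2 were higher and 1 lower. LATS2 was measured at 65.6, 64.8 and 70.05 CPM against 55.8, 62.5, 60.7 and 61.96 CPM (difference 0.15 ± 0.10 (SE), adjusted p = 0.416), so that the groups did not overlap while the difference missed the threshold. The target genes called were NT5E and ANKRD1, which were higher, and PTPN14, which was lower. The PTPN14 call was lost without single samples and the ANKRD1 call without tozasertib replicate 2 (adjusted p = 0.0536).

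Outside the interferon list, the genes with the largest positive differences, among protein-coding calls of at least 5 CPM in a drug group whose groups did not overlap, included several that are best known from other tissues. BGN, the matrix proteoglycan biglycan, was measured at 8.36, 7.52 and 7.75 CPM under tozasertib and at 0.317, 0.356, 0.197 and 0.348 CPM under etoposide, with 0.498 ± 0.157 CPM in DMSO samples (difference 4.69 ± 0.23 (SE), adjusted p = 5.28e-08). Every etoposide and DMSO sample lay below 1 CPM. CRYAB, a small heat shock protein of lens and muscle, followed with 9.74 ± 2.36 CPM against 0.664 ± 0.34 CPM (difference 3.89), and SLC15A3, a lysosomal transporter of peptides, with 5.48 ± 0.462 CPM against 0.508 ± 0.143 CPM (difference 3.401). CYP4F3 and CYP4F2, neighbouring cytochromes that hydroxylate leukotrienes and fatty acids, lie at chr19:15640897-15662825 and chr19:15878023-15898077 (GRCh38). CYP4F3 was measured at 19.9, 18.8 and 19.98 CPM against 1.098, 0.517, 1.21 and 1.71 CPM and CYP4F2 at 12.6 ± 0.436 CPM against 1.02 ± 0.0856 CPM (differences 4.11 and 3.63). Their sequences are alike, so how reads were divided between them is uncertain. PLIN4, a coat protein of lipid droplets, was 2.68-fold higher.

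Other genes of the 15 with the largest positive differences were expressed at higher levels. CLCA2, a p53-inducible membrane protein of epithelia, was measured at 57.8, 58.4 and 75.8 CPM under tozasertib, at 8.74, 7.89, 9.17 and 9.65 CPM under etoposide and at 0.92 ± 0.206 CPM with DMSO (difference 2.85 ± 0.12 (SE), adjusted p = 2.63e-08). Both drugs thus lay above DMSO and tozasertib 7.22-fold above etoposide. NT5E, the ectoenzyme CD73 that makes adenosine, was measured at 331, 338 and 318 CPM under tozasertib and at 105, 106, 87.6 and 93.3 CPM under etoposide, with 495 ± 29.8 CPM in DMSO samples (difference 1.75 ± 0.07 (SE), adjusted p = 2.63e-08). Here etoposide was the group far from DMSO. CYB5R2, a cytochrome b5 reductase, and PPM1K, the mitochondrial phosphatase of branched-chain amino acid breakdown, were 3.42-fold and 3.196-fold higher, and for PPM1K the etoposide and DMSO means were 13.01 and 13.9 CPM.

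**Figure D4:**
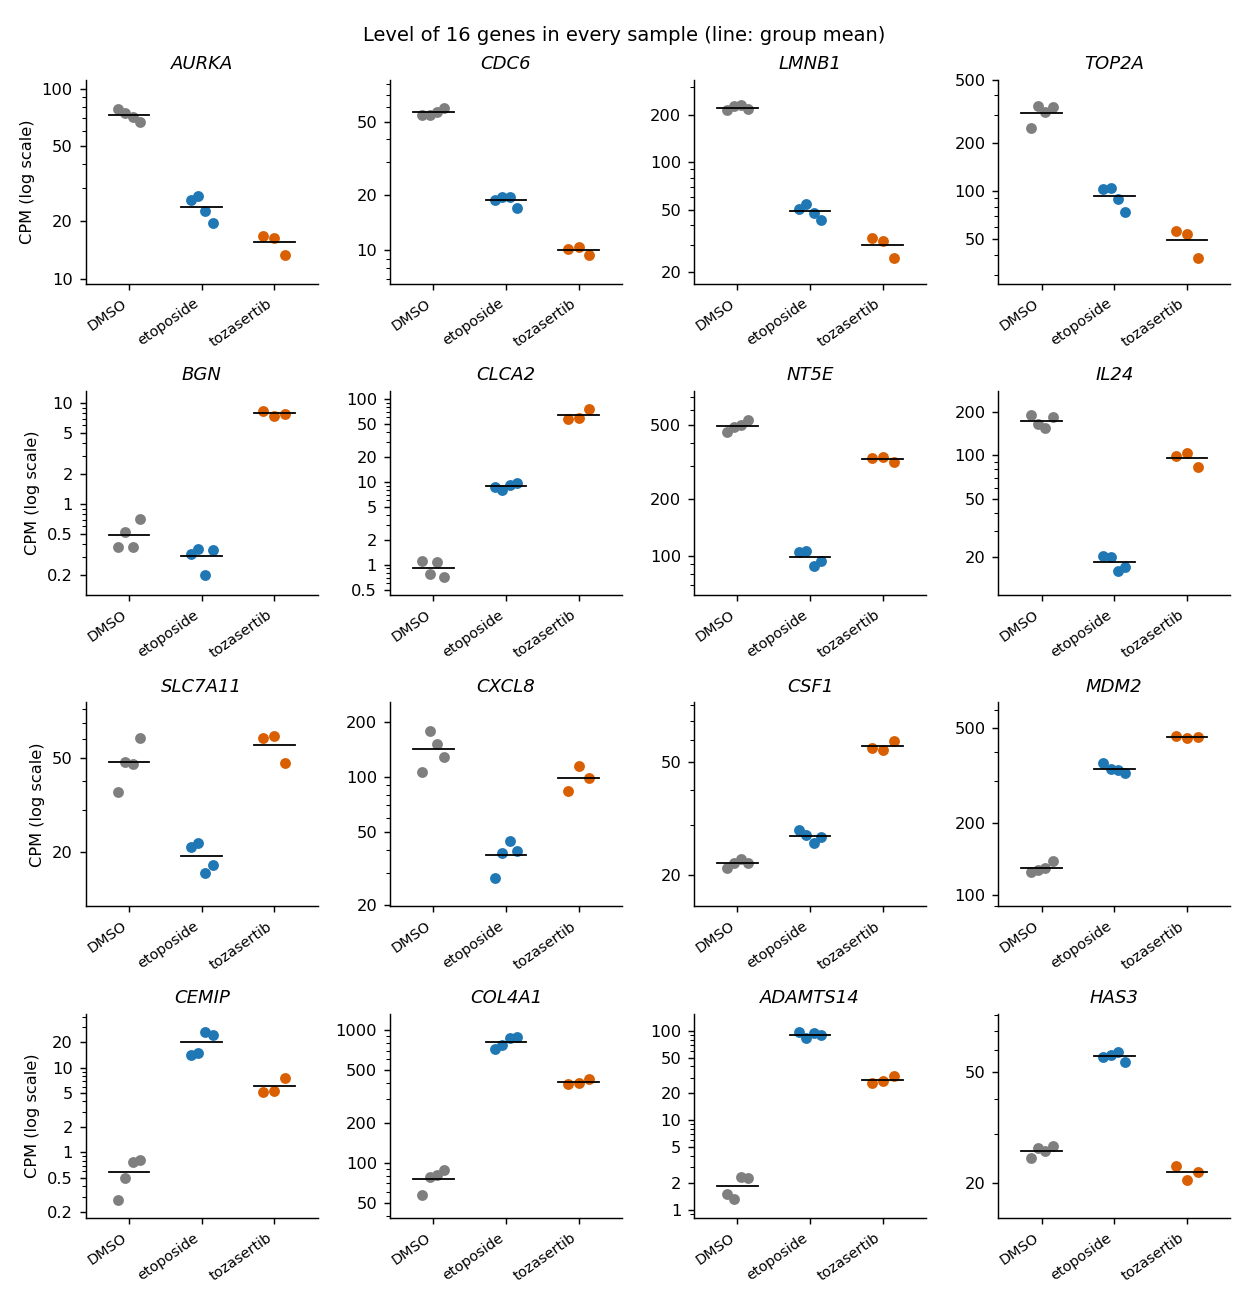
Level in CPM (vertical, log scale, each panel with its own range) of 16 genes in every DMSO, etoposide and tozasertib sample, with a line at the group mean. The drug groups do not overlap in any panel. AURKA, CDC6, LMNB1 and TOP2A fall from DMSO through etoposide to tozasertib, BGN and CLCA2 are highest under tozasertib, NT5E, IL24, SLC7A11 and CXCL8 are lowest under etoposide, and CEMIP, COL4A1, ADAMTS14 and HAS3 are highest under etoposide.

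The 15 genes with the largest negative differences, taken with the same limits, included many extracellular and cell-surface proteins. ADAMTS14, a protease that trims procollagen, was measured at 26.1, 27.5 and 31.04 CPM under tozasertib, at 96.3, 83.6, 94.2 and 90.2 CPM under etoposide and at 1.85 ± 0.522 CPM with DMSO (difference -1.69 ± 0.12 (SE), adjusted p = 8.02e-07). CEMIP, which degrades hyaluronan, was measured at 5.22, 5.24 and 7.64 CPM against 14.2, 14.97, 26.6 and 24.3 CPM (difference -1.73 ± 0.26 (SE)). HAS3, which makes hyaluronan, was measured at 23.01, 20.5 and 21.8 CPM against 56.6, 57.7, 59.02 and 54.3 CPM, with 26.1 ± 1.16 CPM in DMSO samples, so that tozasertib lay near DMSO and etoposide 2.61-fold above tozasertib. TENM2, an adhesion receptor of synapses, DYSF, a protein of membrane repair, CPA4, a carboxypeptidase, and CCBE1, a factor of lymphatic growth, were 3.28-fold, 2.64-fold, 2.58-fold and 2.802-fold higher under etoposide. ACKR3, an atypical receptor of the chemokine CXCL12, was measured at 2.31 ± 0.487 CPM against 7.75 ± 2.45 CPM and at 0.0166 CPM with DMSO. CGB8, a chorionic gonadotropin subunit with near-identical copies among which reads may be split, was 3.42-fold higher, and SMOC1, a matrix protein, was 25.3 ± 2.05 CPM against 69.3 ± 8.296 CPM with 67.4 ± 6.49 CPM in DMSO samples. MARCHF3, a ubiquitin ligase, LRRC17, ANOS1, the matrix protein anosmin, and LRRN4CL, with NOG described below, completed the 15, with differences of -1.62, -1.48, -1.23 and -1.22. The call of ANOS1 was lost without tozasertib replicate 1 or 2 (adjusted p = 0.0572 and 0.0501).

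Extracellular matrix genes changed in both directions, with 17 lower and 10 higher of 73 (median -0.06). COL4A1, a chain of basement membrane collagen, was measured at 391, 399 and 431 CPM under tozasertib, at 719.7, 771, 865 and 889 CPM under etoposide and at 75.9 ± 13.1 CPM with DMSO (difference -0.996 ± 0.12 (SE), adjusted p = 0.000154). COL1A1, the fibrillar collagen also used as a fibroblast marker, was 18.8 ± 0.994 CPM against 36.1 ± 3.67 CPM (difference -0.94), and THBS2, a matricellular inhibitor of vessel growth, was higher at 261 ± 8.28 CPM against 165 ± 11.9 CPM (difference 0.66). Proteases of the ADAMTS family and sulfatases were lower in 4 of 9 and higher in none. Leaving out tozasertib replicate 1 or 2 brought the lower members to 10 and 11. Of 33 genes of TGF-beta and BMP signalling 5 were lower and 2 higher. The ligands INHBB (-1.61), TGFB1 (-0.44) and TGFB3 (-0.47) and the BMP antagonist NOG (-1.53) were lower. The call of TGFB3 was lost without any of 4 single samples (adjusted p up to 0.146), that of INHBB without tozasertib replicate 2 (0.0544) and that of TGFB1 with length-scaled counts (0.0539). ID3, a target of BMP signalling, was measured at 55.3, 54.5 and 58.5 CPM under tozasertib and at 24.9, 25.5, 23.7 and 26.4 CPM under etoposide (difference 1.16 ± 0.08 (SE), adjusted p = 5.44e-07), and the inhibitory SMAD6 was higher by 0.81, a call lost without single samples (adjusted p up to 0.115).

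Secreted factors of senescence were called in both directions. Of 58 tested, 14 were higher and 5 lower under tozasertib (median 0.10), and 9 were higher without tozasertib replicate 2. IL24, a cytokine of the IL-10 family, was measured at 99.7, 104 and 83.5 CPM under tozasertib and at 20.3, 19.9, 16.1 and 17.1 CPM under etoposide, with 173 ± 15.5 CPM in DMSO samples (difference 2.38 ± 0.10 (SE), adjusted p = 2.63e-08). CXCL8, the neutrophil chemokine IL-8, was measured at 83.6, 115 and 98.4 CPM against 28.02, 38.6, 44.5 and 39.3 CPM, with 141 ± 30.8 CPM in DMSO samples (difference 1.39 ± 0.18 (SE), adjusted p = 0.000198). For both, the tozasertib samples lay between those of etoposide and the DMSO mean. CSF1, the macrophage growth factor, was measured at 56.1, 55.2 and 59.5 CPM against 28.8, 27.5, 25.8 and 27.3 CPM (difference 1.06 ± 0.06 (SE), adjusted p = 1.63e-07), and IL6 at 8.58 ± 0.956 CPM against 4.604 ± 1.01 CPM (difference 0.90 ± 0.18 (SE), adjusted p = 0.00531). AREG, a ligand of the EGF receptor, was 3.15-fold higher at about 1 CPM. IL1B and CCL2 did not pass the test, with differences of 0.19 ± 0.11 (SE) and -0.34 ± 0.14 (SE) and adjusted p-values of 0.339 and 0.159, although both stood above DMSO with either drug. IGFBP7 differed by -0.26 ± 0.09 (SE) with an adjusted p of 0.085, and was called by DESeq2, by limma-voom, without the filter on low counts and in the fit of drug samples alone. The lower members included the lipase inhibitor ANGPTL4 (-0.82, a call lost without any of 4 single samples), the cytokine IL11 (-0.76), TGFB1 and the plasminogen activator PLAT (-0.37).

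NF-kB genes, which act upstream of many of these factors, were higher in 10 of 28 and lower in 1 (median 0.19), with 6 of 12 in the group of inhibitors and feedback genes. BIRC3, an inhibitor of apoptosis induced by NF-kB, was measured at 22.2, 22.7 and 20.4 CPM against 11.2, 10.3, 7.45 and 9.096 CPM (difference 1.19 ± 0.15 (SE), adjusted p = 0.000191). TNFAIP3, TRAF1 and NFKBIA, which restrain or relay the pathway, were higher by 1.04, 0.74 and 0.66. TNFAIP2 differed by -0.41, with an adjusted p of 0.0723 with length-scaled counts. Output genes of ERK, the kinase that the melanoma oncogenes drive, were higher in 10 of 32 and lower in 1, FOSL2, whose call was lost when any 1 of the 7 samples was left out. SPRY4, a feedback inhibitor of ERK signalling, was measured at 10.5, 10.4 and 8.404 CPM under tozasertib, at 4.47, 4.98, 3.94 and 3.35 CPM under etoposide and at 44.4 ± 8.54 CPM with DMSO (difference 1.22 ± 0.17 (SE)). ETV4, an ETS factor, was 3.72 ± 0.154 CPM against 2.405 ± 0.0933 CPM, with 69.2 ± 5.200 CPM in DMSO samples. For both genes either drug lay far below DMSO. The small MAF factor MAFF (1.18) and the AP-1 subunit FOSL1 (0.34) were also higher, and the count of higher members was 6 without tozasertib replicate 1 and also without tozasertib replicate 2.

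A word bound by AP-1 factors was searched in the same promoters. TGANTCA, which reads the same on both strands, was found in 29 of 175 promoters (16.6%) of genes at least 2-fold higher outside the interferon list, in 10.3% of all 619 higher genes outside it, in 4.53% of the 728 genes that were lower and in 4.93% of tested genes. Among tested genes under 5 CPM with both drugs the share was 6.96%. The ISRE core TTCNNTTTC, the word of interferon-stimulated genes, was in 57.6% of the 99 higher interferon genes with a promoter. Outside the list it was in 22 of the 175 promoters (12.6%) of genes at least 2-fold higher and in 8.89% of all higher genes. Its share was 6.72% of tested genes, and 7.54% of those under 5 CPM with both drugs outside the list. Promoters of 3 of the 15 highest genes are shown as examples of genes in which the AP-1 word lies before the start, over 180 bases, with the word in capitals (RefSeq, GRCh38.p14). The windows are chr4:73740389-73740568 for CXCL8, chr1:86423991-86424170 for CLCA2 and chr19:15641132-15641311 for CYP4F3, all on the plus strand. The start of CYP4F3 in RefSeq lies downstream of its start in GENCODE, so that its window falls inside the GENCODE gene.
CXCL8: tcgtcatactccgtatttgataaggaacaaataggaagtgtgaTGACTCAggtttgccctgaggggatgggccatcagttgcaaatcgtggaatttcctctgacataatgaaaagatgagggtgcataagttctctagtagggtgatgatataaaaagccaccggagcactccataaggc
CLCA2: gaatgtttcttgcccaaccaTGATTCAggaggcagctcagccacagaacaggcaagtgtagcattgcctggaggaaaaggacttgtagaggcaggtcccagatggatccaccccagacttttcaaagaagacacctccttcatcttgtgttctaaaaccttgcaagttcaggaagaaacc
CYP4F3: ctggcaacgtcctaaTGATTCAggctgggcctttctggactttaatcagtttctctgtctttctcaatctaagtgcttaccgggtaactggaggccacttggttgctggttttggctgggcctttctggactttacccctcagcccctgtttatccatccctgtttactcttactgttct
The word begins 137 bases before the start in CXCL8, 160 in CLCA2 and 165 in CYP4F3. A match of this length is a description of the sequence and not a site at which binding was measured.

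In the list of defence and iron genes of ferroptosis, death by iron-dependent oxidation of membrane lipids, 14 of 40 were higher under tozasertib and 3, all iron genes, lower (median 0.12). SLC7A11, the cystine importer that feeds glutathione synthesis, was measured at 60.7, 61.5 and 47.6 CPM under tozasertib and at 21.1, 21.9, 16.4 and 17.6 CPM under etoposide, with 47.7 ± 10.1 CPM in DMSO samples (difference 1.56 ± 0.16 (SE), adjusted p = 2.63e-05). The mean of the tozasertib samples thus lay above the DMSO mean, with their lowest sample (47.6 CPM) level with it. Every etoposide sample lay below the DMSO mean. Its heavy chain partner SLC3A2 was 182 ± 3.29 CPM against 139 ± 4.18 CPM (difference 0.39). GPX4, the peroxidase that reduces lipid hydroperoxides, went the other way without passing the test, at 133, 141 and 147 CPM against 169, 179.9, 188 and 187 CPM and 133 ± 30.3 CPM with DMSO (difference -0.37 ± 0.13 (SE), adjusted p = 0.0921). The tozasertib samples all lay below the etoposide samples, and the gene was called with DESeq2, without the filter on low counts and in the fit of drug samples alone, and its adjusted p ran from 0.00104 to 0.286 over the alternatives. Of 11 genes of glutathione and GPX4, 5 were higher and none lower.

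Iron genes were called in both directions, 3 of 16 each way. ACO1, the cytosolic aconitase that binds iron-responsive elements when iron is scarce, was measured at 15.5, 15.3 and 18.9 CPM under tozasertib, at 30.7, 33.5, 42.3 and 38.6 CPM under etoposide and at 35.05 ± 2.53 CPM with DMSO (difference -1.13 ± 0.12 (SE), adjusted p = 3.47e-05). Here tozasertib was the group apart from DMSO. STEAP3 and FBXL5, the iron-sensing subunit of a ubiquitin ligase, differed by -0.57 and -0.30. NRF2 target genes were higher in 10 of 30 and lower in none (median 0.16). TXNRD1, thioredoxin reductase, was measured at 402, 423 and 411 CPM against 233, 264, 253 and 271 CPM (difference 0.69 ± 0.08 (SE), adjusted p = 8.84e-05). NQO1, a quinone reductase, was measured at 369.5 ± 20.6 CPM against 249 ± 15.4 CPM with 378 ± 38.5 CPM in DMSO samples (difference 0.57), and SQSTM1, the autophagy receptor p62 that stabilizes NRF2, at 861 ± 7.52 CPM against 611 ± 16.99 CPM (difference 0.49). The count of higher members of the ferroptosis list was 9 with length-scaled counts and fell to 7, 9 and 8 without tozasertib replicates 1, 2 and 4.

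Of the integrated stress response, which raises ATF4 when translation is slowed, 8 of 35 genes were higher and 1 lower. DDIT3, the factor CHOP, was 13.2 ± 1.79 CPM against 6.82 ± 0.857 CPM (difference 0.95 ± 0.15 (SE)), and PPP1R15A, which ends the response, was 322 ± 16.8 CPM against 235 ± 23.6 CPM (difference 0.46). None of 12 amino acid enzymes was called. The lower member was the glutamine transporter SLC1A5 (-0.26), with a call lost without single samples. In the unfolded protein response and heat shock list 1 of 43 was called, CRYAB, and none of its 24 genes of the endoplasmic reticulum.

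Lipid synthesis genes were called at shares not far from the 11.1% of all genes tested. The share was 9.38% for cholesterol synthesis and uptake and 13.8% for fatty acid and ether lipid synthesis. HMGCS1, which commits carbon to cholesterol, was measured at 42.1, 42.4 and 41.9 CPM under tozasertib and at 42.8, 41.6, 42.04 and 41.8 CPM under etoposide, with 308 ± 31.4 CPM in DMSO samples (difference 0.00 ± 0.07 (SE), adjusted p = 0.985), and the drug groups overlapped well below DMSO. Of 32 genes of cholesterol synthesis and uptake 1 was higher (INSIG1) and 2 lower (IDI1 and SREBF2), with differences of 0.23, -0.28 and -0.24, and each call was lost without at least 1 single sample. Of 29 genes of fatty acid and ether lipid synthesis 4 were lower and none higher, while 5.45% of all genes tested were lower. They were SCD5, a desaturase (-0.53), ACSS2, which activates acetate (-0.36), and the acyltransferases LPCAT3 and MBOAT2 (-0.27 and -0.27), and the last 3 calls were lost without single samples. Lysosome genes were higher in 6 of 54 and lower in 1, MANBA, with CTSS, cathepsin S, highest at 22.3 ± 1.58 CPM against 12.4 ± 0.394 CPM (difference 0.85). FUCA1 and LIPA, hydrolases of fucosides and of cholesterol esters, were higher by 0.39 and 0.31, and LIPA had an adjusted p of 0.0656 with length-scaled counts. The MANBA call was lost without tozasertib replicate 1 (adjusted p = 0.0565) and with length-scaled counts. The lysosome count was 3 without tozasertib replicate 1 or 2 or etoposide replicate 3 or 4.

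Glycolysis and hypoxia genes were higher in 3 of 39 and lower in 5. SLC2A1, the glucose transporter GLUT1, was measured at 504, 527 and 501 CPM under tozasertib and at 722, 777, 736 and 714 CPM under etoposide (difference -0.53 ± 0.05 (SE), adjusted p = 2.32e-05). LDHA, which makes lactate, was 246 ± 1.78 CPM against 311 ± 14.3 CPM, with 1357 ± 128 CPM in DMSO samples (difference -0.34), and the prolyl hydroxylase of collagen P4HA2 differed by -0.45. ADM, the vasodilator adrenomedullin, went the other way at 122 ± 8.61 CPM against 69.8 ± 3.41 CPM (difference 0.81). The remaining calls, P4HA1 and the lactate transporter SLC16A1 (lower) and ENO2 and EGLN1 (higher), were each lost without single samples.

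Ribosomal protein genes were lower under tozasertib in 14 of 30 and higher in none (median -0.40), while none of 24 genes of ribosome biogenesis was called. Their summed level was 19673 ± 1330.5 CPM under tozasertib, 26026 ± 1836 CPM under etoposide and 34022 ± 6262 CPM with DMSO, and the drug groups did not overlap. RPS6, a protein of the small subunit, was measured at 575, 586 and 658 CPM against 759.7, 840.3, 933 and 936 CPM (difference -0.52 ± 0.09 (SE), adjusted p = 0.00239). RPL4, RPL5 and RPL7 of the large subunit differed by -0.48, -0.43 and -0.58. These genes have many processed pseudogenes, so the division of reads is uncertain. The count was 6, 7 and 8 without tozasertib replicate 1, tozasertib replicate 2 and etoposide replicate 3, and 29 in the fit of drug samples alone. Of 13 mitochondrially encoded mRNAs none was called, and of 27 replication-dependent histone genes 2 were higher. Their levels lay above DMSO with both drugs. H2AC6 was 136 ± 1.29 CPM against 115 ± 1.199 CPM and H2BC21 43.7 ± 2.93 CPM against 32.2 ± 2.14 CPM, while DMSO samples held 9.15 and 5.74 CPM. The H2AC6 call was lost when any 1 of the 7 samples was left out. Transcripts of these genes normally lack a poly(A) tail, so poly(A) selection measures only their tailed forms.

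Melanocyte lineage genes were higher in 7 of 17 tested and lower in 2 (median 0.23), most of them at low level. PMEL, the fibril protein of pigment granules, was measured at 4.15, 3.25 and 4.15 CPM under tozasertib and at 0.464, 0.55, 0.253 and 0.348 CPM under etoposide (difference 3.25 ± 0.32 (SE), adjusted p = 2.25e-05), without TYR or MLANA. ERBB3, a receptor of neuregulin, was 5.697 ± 0.372 CPM against 2.12 ± 0.795 CPM with 19.8 ± 3.18 CPM in DMSO samples (difference 1.41), and its adjusted p was 0.421 with length-scaled counts. MITF, the master factor of melanocytes, was 9.25 ± 0.261 CPM against 9.44 ± 0.692 CPM (difference -0.03 ± 0.10 (SE), adjusted p = 0.907). SOX10 and PAX3, factors of the lineage, were higher by 0.23 and 0.40, and the SOX10 call was lost without any 1 tozasertib replicate (adjusted p up to 0.0654). LEF1 and CDK2 were the lower members, and neither call was kept without single samples. Of genes of the dedifferentiated and neural crest state 6 of 31 were higher, with SOX11 at 174 ± 9.04 CPM against 109.9 ± 7.65 CPM (difference 0.66) and SOX4 differing by 0.39, and 3 were lower, among them WNT5A (-0.59) and LOXL2 (-0.43).

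Among 26 integrins and adhesion genes 3 were higher and 4 lower, and integrin subunits were called in both directions. ITGA6, a laminin receptor chain, was measured at 249, 259.7 and 252 CPM against 148, 156, 143 and 155 CPM (difference 0.75 ± 0.08 (SE), adjusted p = 4.41e-05), and ITGA7, the laminin receptor chain of muscle, was 5.17-fold higher at 3.85 ± 0.654 CPM. ITGB5, ITGB3 and ITGB1, beta chains, differed by -0.60, -0.56 and -0.30, and the ITGB1 call was lost without tozasertib replicate 1 (adjusted p = 0.0714). Of actin, myosin and tubulin genes 8 of 45 were lower and 2 higher, with VCL, the adhesion linker vinculin, at 266 ± 2.99 CPM against 371 ± 14.1 CPM (difference -0.48), MYL9, a myosin light chain, differing by -0.75, and MAP2, a microtubule protein of neurons, higher by 1.09. The count of lower members was 2 without tozasertib replicate 1 or 2. Axon guidance and receptor kinase genes were higher in 7 and lower in 6 of 56, with PLXNB1, a semaphorin receptor, higher by 0.41 and EPHB2, SEMA3D and NTN4 differing by -0.61, -0.87 and -0.47. In the BCL2 family and death receptors 2 of 31 were higher, FAS (0.25) and TNFRSF10A (0.29). The FAS call was lost when any 1 of the 7 samples was left out and the TNFRSF10A call without tozasertib replicate 1. No member of the survival, effector or BH3-only groups was called.

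Most of the large positive differences were in genes at low level. Outside the interferon list 115 genes were at least 4-fold higher under tozasertib, and 107 of them stood below 5 CPM in both drug groups. The 115 had at least 1 read in every tozasertib sample, while 92 to 101 had one in an etoposide sample and 78 or 79 in a DMSO sample. These values describe genes chosen by the same contrast, and a gene at low level could pass the filter on counts through the group in which it was high. Their median level was 0.769 to 0.853 CPM in single tozasertib samples and 0.0647 to 0.105 CPM in single etoposide samples. In 107 of the 115 the DMSO mean lay below the tozasertib mean, and 84 were protein-coding and 28 were lncRNA genes. Of genes under 1 CPM 3.91% were higher and 0.329% lower, and of genes at 50 CPM or more 4.02% were higher and 8.75% lower.

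The number of genes detected was higher in every tozasertib sample once depth was equal. At full depth 25988 ± 1659 genes had at least 1 read under tozasertib and 23948 ± 860 under etoposide, an exact permutation p of 0.114 (two-sided, 3 against 4). At the lowest total of the samples, 27844562 reads on matched transcripts, the numbers were 24950 ± 466 and 23418 ± 433, with 22732 ± 198 for DMSO. The 3 tozasertib samples then held 25471, 24572 and 24808 genes and the 4 etoposide samples 24058, 23239, 23266 and 23107, without overlap, and the exact permutation p of 0.0571 is the smallest that 3 against 4 samples can give. The deepest library of each drug had the highest number also after this correction. The part of depth in the low-level differences was not tested beyond it.

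**Figure D5:**
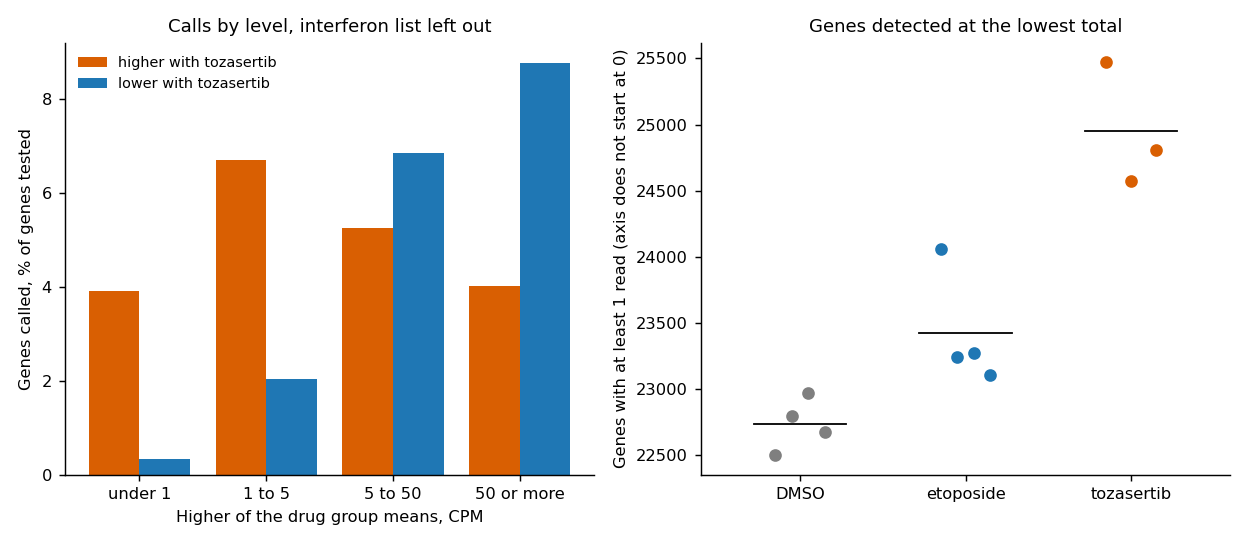
Left, percentage of tested genes outside the interferon list that were called higher (orange) or lower (blue) under tozasertib, by the higher of the drug group means in CPM. Right, number of genes with at least 1 read in each sample at the same total of reads, with a line at the group mean. Higher calls dominate below 5 CPM and lower calls above 5 CPM, and every tozasertib sample lies above every etoposide sample.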

How the data were processed

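Poly(A)-enriched RNA of SK-MEL103 cells was sequenced from directional libraries, 1 library per sample. The authors deposited, per the labels' processing notes and the file headers, Salmon 1.9.0 tables (after cutadapt 4.7, build GRCh38) of estimated counts and TPM per transcript. The methods name the STAR aligner, which these tables do not come from, and for the transcript release and the Salmon options the entry is: not given in the sources used here. The notes also name R 4.4.2 and DESeq2 1.40.2.

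Estimated counts were summed to genes with GENCODE release 44 (437 of 251645 transcripts, holding 0.136% to 0.163% of reads, were unmatched) and rounded. Totals were 27882689 to 56534763 reads, so low-level genes carry more counting error. The deposited TPM values were averaged per gene as a scale between genes and entered no test. edgeR 4.0.16 (R 4.3.3) fitted a quasi-likelihood model with TMM, filterByExpr and a mean per group over all 11 samples, and the contrast was tozasertib minus etoposide, with Benjamini-Hochberg adjustment. Single values were compared by exact permutation tests. Counts were also simulated for this design, with the same relative spread for every gene and no effect of replicate. In them 100 genes were changed 2-fold and 100 genes 4-fold, and 16591 genes passed the filter. Among changed genes that passed it, 92.8% and 100% were called, and 6 unchanged genes were called. These shares need not hold for the real libraries.

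The members and gene lists were chosen with earlier results of these data known. Named genes were a fixed set of central genes, the 15 highest and 15 lowest protein-coding calls of at least 5 CPM without overlap and outside the interferon list, up to 4 calls per list with the smallest adjusted p, every call where a list had 5 or fewer in a direction, and 4 interferon genes. A few of the genes it selects are left out of the text. Alternatives were DESeq2 1.42.0, limma-voom (limma 3.58.1), RLE size factors, library size alone, no filter, drug samples only, a replicate block, length-scaled counts, leaving out each drug sample, and, chosen after seeing the data, a term for replicates 1 and 2 against 3 and 4. No pair of replicates agreed within sampling noise. Promoters were RefSeq windows (GRCh38.p14), found for 11780 of the tested genes.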

Additional observations from a re-analysis of the deposited data

Results flagged for a closer look

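At equal depth etoposide replicate 1 held 24058 genes with at least 1 read, far from the other 3 etoposide samples, which held 23107 to 23266. Within the etoposide group, 2 of 166 named genes had a sample far from the others by Dixon's test, both in etoposide replicate 1. Chance flags about 1 in 20 groups, and this count does not cover the DMSO samples. RND3, a small GTPase that loosens actin fibres, was measured at 224 CPM in that sample, and SOX10 at 336 CPM.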

How the results depend on the processing

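The number of genes called (1895) was 3552 with the drug samples alone, which changes the estimate of the spread, and 1126 with length-scaled counts, which held 1060 of the main calls. It ran from 1036 (without tozasertib replicate 1) to 2186 (without etoposide replicate 1) when 1 sample was left out, and was 1075 without tozasertib replicate 2. Genes higher with tozasertib (966) numbered 1785 with drug samples alone, 604 with length-scaled counts and 565 to 1154 with a sample left out. Genes lower with tozasertib (929) numbered 1767, 522 and 471 to 1032 in the same settings, and 1493 with DESeq2. Calls at least 2-fold apart (418) numbered 670 without the filter on low counts and 327 to 485 with a sample left out. The cause of these moves was not tested, apart from the number of samples and genes that each setting enters. The calls split into 1021 higher and 1493 lower with DESeq2. They split into 874 and 1159 under RLE scaling and into 1070 and 760 when only the library size was used. The term for replicates 1 and 2 against 3 and 4 gave 2238 calls and held 1874 of the main ones. Of 155 named genes called, 110 were called under each of the 16 alternatives, 45 were lost under at least 1, and none changed its fitted direction. Of the 11 named genes not called, 4 were called under at least 1 alternative. The lower members of mitosis and of replication did not move by more than 1.5 times under any alternative.

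The replicate numbers were checked for pairing. Deviations from the group means correlated across genes at 0.23 for replicate 1, 0.091 for replicate 2 and 0.12 for replicate 4, and tozasertib replicate 4 correlated best with etoposide replicate 3. The remaining pairs of unlike number ran from -0.207 to -0.0033. Not every pair of like number passed 0.1, so the numbers were not taken as pairs. With the replicate block 1619 genes were called, 834 higher and 785 lower, of which 1484 were main calls.

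The depth of the libraries limits genes under 1 CPM, for which a group of samples holds few reads and the fitted difference depends on the prior count.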
